A study of Mus musculus with 28 samples.

Results

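Pancreatic macrophages were sorted from wild-type mice of the C57BL/6J strain after acute pancreatitis (AP), and the step from the first to the third day of recovery without lactate was examined here: the 4 libraries labelled D3 AP+PBS were compared with the 6 labelled D1 AP+PBS, 10 of the 28 libraries of the series. Both groups came from mice given caerulein, an analogue of the gut hormone cholecystokinin that overstimulates the enzyme-secreting acinar cells of the pancreas, and both received PBS, the saline vehicle. The other libraries were NC (3, an abbreviation the labels do not explain), D0 (5), D1 AP+Lac (6) and D3 AP+Lac (4), the last 2 from mice given lactate in place of PBS. Age, sex, doses and the sort markers are not given in the labels. The labels do not state whether each library is a different animal, so p-values measure the spread between libraries, which may be technical. RNA-seq libraries were made from total RNA and expression was read as FPKM (fragments scaled to gene length and to the mapped fragments of the library). Recovered depth was 33273402 to 37352164 mapped fragments in the day 3 PBS libraries and 37796070 to 41060543 in the day 1 PBS libraries, so every day 3 library was shallower than every day 1 library.

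Macrophages of an injured tissue take up dead cells through scavenger and efferocytosis receptors and degrade them in lysosomes, acidic compartments built from proton pumps, proteases and glycosidases. Over the course of repair the pool changes: monocytes enter and mature, resident cells persist or are replaced, and dendritic cells, which present antigen on MHC class II, share many surface markers with macrophages and can enter the same sort gate. Type I and type II interferons switch on a common set of antiviral and antigen-processing genes in all of these cells.

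The sorted populations carried macrophage RNA at both days together with RNA of other cell types. All 12 macrophage markers were detected, with summed values of 7538 to 11619.8 FPKM in the day 3 PBS libraries and 12592 to 20843 FPKM in the day 1 PBS libraries. Digestive enzymes and other acinar markers (31 measured genes) summed to 3902 to 28901 FPKM at day 3 and 1229 to 6505 FPKM at day 1, and day 3 replicate 2 was the highest library. Some libraries stood apart from their group. Day 1 replicate 5, and less so replicate 6, had high interferon-stimulated genes (mean level 7.38 and 6.16 on the log2(FPKM + 1) scale, against 4.30 to 4.81 in replicates 1 to 4) with low acinar (3.99 and 3.74, against 5.41 to 5.80) and low fibroblast markers (1.52 and 1.63, against 2.80 to 3.43). Day 3 replicates 1 and 4 had 159 and 151 FPKM of Lars2, a mitochondrial leucyl-tRNA synthetase gene, against 22.4 and 21.5 FPKM in replicates 2 and 3 and 11.7 to 16.3 FPKM in the day 1 PBS libraries, and the gene model Gm26917, chosen after its values were seen, had 1942 and 1643 FPKM there, against 247 and 276 FPKM in the other day 3 libraries and 128 to 202 FPKM at day 1. The noncoding RNA Malat1, also chosen after its values were seen, had 583 and 311 FPKM in day 3 replicates 1 and 4. It had 161 and 202 FPKM in day 3 replicates 2 and 3 and 66.6 to 182 FPKM at day 1. Whether day 3 replicates 1 and 4 differ from the others in RNA or library quality was not tested. Where leaving out either pair moves the count of a list described below by over 1.5 times, to or from 3 or more, both counts are given. In the day 1 lactate group, replicates 5 and 6 likewise had low fibroblast markers (1.57 and 1.70, against 2.59 to 3.66 in replicates 1 to 4). Their acinar levels were 4.43 and 4.24, against 4.50 to 5.67. Their interferon-stimulated levels were 8.01 and 7.09, against 5.91 to 7.12. Why libraries with these numbers stood apart in both groups was not tested.

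Between the days, 2569 genes rose and 1534 fell out of 11960 tested, which is 21.5% and 12.8% of them (limma on log2(FPKM + 1), Benjamini-Hochberg adjusted p under 0.05). Every day 3 PBS library lay above every day 1 PBS library for 994 genes (8.31%) and below for 869 (7.27%). The median log2 change over all tested genes was 0.10, and rescaling each library by its median ratio moved this value by -0.11. The split depended on that choice: genes that rose made up 62.6% of the calls as deposited, 43.2% (1662 against 2186 that fell) after median-ratio scaling and 44.8% after quantile normalization. Without day 1 replicates 5 and 6, 2510 genes rose (21.0%) and 1757 fell (14.7%); without day 3 replicates 1 and 4, 1855 rose (15.5%) and 1030 fell (8.61%). Of the 133 genes described here that were called, 4 lost their call without the first pair (C1qa, Timd4, Ciita and Dcn) and 29 without the second: Lars2, Axl, Timd4, Apoe, Ciita, Cd274, Cxcl9, Cd3e, Ldhb, Fos and Dcn, and 18 interferon-stimulated, class I and Ly6 genes named with their lists. Lists of genes are described below by their counts beside the 21.5% and 12.8% of all genes and by their median log2 change beside 0.10. List members named only as called or not called were named after their calls were seen.

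**Figure D1:**
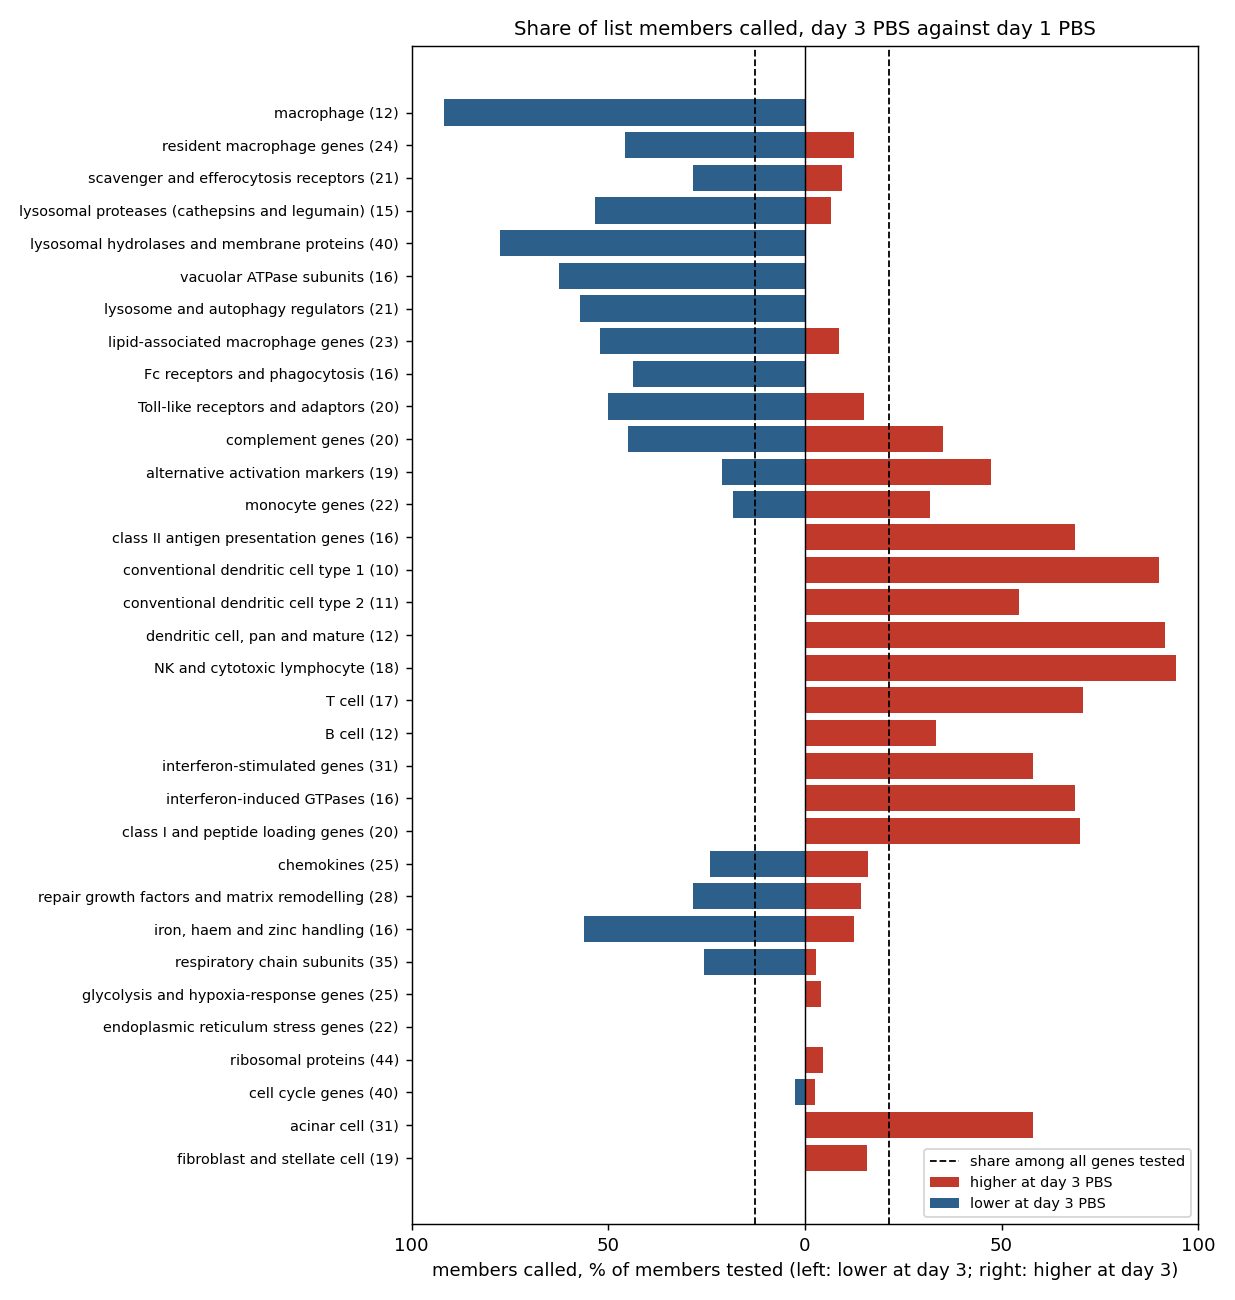
Share of the tested members of each list that were called higher (right, red) or lower (left, blue) at day 3 PBS than at day 1 PBS, in percent, with the number of tested members in brackets and dashed lines at the shares of all genes tested, 21.5% and 12.8%. Lysosomal, macrophage and scavenger lists lie to the left, and dendritic cell, cytotoxic lymphocyte, antigen presentation and interferon lists to the right.

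Macrophage identity genes fell. Of the 12 macrophage markers 11 fell and 0 rose, with a median log2 change of -1.03, and Fcgr1, the high-affinity IgG receptor, was the one without a call. Adgre1, which encodes the surface marker F4/80, had 157, 114, 122 and 175 FPKM in day 3 PBS replicates 1 to 4, against a lowest, median and highest of 280.3, 374 and 434 FPKM in the 6 day 1 PBS libraries. No library of one day reached the range of the other, and the log2 change was -1.35, SE 0.22, adjusted p = 1.64e-04. Csf1r, the receptor for the growth factor that keeps macrophages alive, had 296, 221, 299.9 and 285 FPKM at day 3 and 449, 561 and 729.7 FPKM at day 1. The ranges were again separate, with a log2 change of -1.07, SE 0.17, adjusted p = 1.28e-04. Cd68 (-1.21), a lysosomal glycoprotein, the efferocytosis kinase Mertk (-1.40) and the LPS co-receptor Cd14 (-1.46) also fell, as did lysozyme, Lyz2, by less (-0.89). C1qa, a chain of the complement starter C1q, fell by 0.78 but overlapped between the days, and its call was lost when day 1 replicate 1, 4 or 6 or day 3 replicate 1, 2 or 3 was left out (adjusted p up to 0.11). In a sorted bulk sample, fewer cells of a type and less RNA per cell cannot be told apart. With the macrophage marker level as a covariate the genes that rose or fell numbered 138 and 206; that level ran from 7.38 to 8.06 at day 3 and 8.39 to 9.01 at day 1, so day and level do not overlap in these libraries.

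Stab1, a scavenger receptor of sinusoidal endothelium and of resident macrophages that clears modified lipoproteins and dying cells, had the lowest log2 change of the 140 genes described here. It had 54.05, 42.3, 59.04 and 38.2 FPKM in the day 3 PBS libraries, against 124, 334 and 567 FPKM (lowest, median, highest) in the day 1 PBS libraries. All 4 day 3 values lay under all 6 day 1 values, and day 1 replicate 5 was the lowest of its group; the log2 change was -2.68, SE 0.30, adjusted p = 4.15e-06. Of 21 tested scavenger and efferocytosis receptors 6 fell (Stab1, Scarb2, Mrc1, Mertk, Itgb5 and Lrp1) and 2 rose (Axl and Timd4). Itgb5, the integrin chain that pairs with alpha v to bind apoptotic cells through a bridging protein, had 28.5, 24.3, 26.5 and 24.8 FPKM at day 3 and 61.9, 91.1 and 115 FPKM at day 1, with no overlap (-1.71). Lrp1, an endocytic receptor of many ligands (-1.18), and Mrc1, the mannose receptor CD206 (-1.22), fell as well. Axl, a TAM-family kinase related to Mertk, went the other way (0.84, SE 0.29, adjusted p = 0.028), but its groups overlapped and the call was lost without day 1 replicate 1 or 4 or day 3 replicate 1 or 4 (adjusted p up to 0.080).

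Genes of tissue-resident macrophages divided: 11 of 24 fell, 3 rose and 10 were not called, with a median log2 change of -0.61. F13a1, the A chain of clotting factor XIII, had 87.99, 75.8, 86.4 and 83.5 FPKM at day 3 and 139, 252 and 412 FPKM at day 1. The day 3 libraries lay close together and under all day 1 libraries (-1.58, SE 0.24, adjusted p = 6.40e-05). Selenop, the selenium carrier selenoprotein P (-1.57), Gas6, the ligand that bridges dying cells to TAM kinases (-1.35), and Cbr2, a carbonyl reductase (-1.81), fell with separate ranges. Timd4, a phosphatidylserine receptor of long-lived resident cells, had 6.37, 3.99, 5.62 and 5.29 FPKM at day 3 and 1.92, 2.68 and 6.57 FPKM at day 1. Its estimate of 0.62 was called (adjusted p = 0.039) but the groups overlapped, and without day 1 replicates 5 and 6 it was 0.46 (adjusted p = 0.15). Leaving out single libraries moved the number of resident genes that rose between 1 (without day 1 replicate 5 or 6 or day 3 replicate 2) and 5 (without day 1 replicate 3), with 0 by limma without day 1 replicates 5 and 6 and 0 in a fit of the PBS groups alone, and of scavenger genes that rose between 0 (without day 1 replicate 1 or 4) and 4 (without day 1 replicate 3), with 1 left without day 1 replicate 5 or 6 or day 3 replicate 1, 3 or 4.

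Transcription factors of the lineage moved in opposite directions. Of 20 lineage receptors and factors 8 fell and 3 rose; the factors Maf (-1.04), Cebpa (-0.84) and Cebpb (-0.67), which act in macrophages, fell, and Irf8 (0.42), Batf3 (0.71) and Id2 (1.05), which act in dendritic cell formation among other roles, rose.

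Other genes had large falls. Nxpe5, of the neurexophilin and PC-esterase family, had 2.19, 2.36, 3.01 and 2.50 FPKM at day 3 and 14.02, 16.9 and 26.8 FPKM at day 1 (-2.49, SE 0.28, adjusted p = 4.15e-06). Abcc3, an organic anion exporter (-2.07), Nt5dc2, a 5'-nucleotidase domain protein (-2.06), Rnase4, a secreted ribonuclease (-1.92), and Ms4a4a, a tetraspan membrane protein of macrophages (-1.86), fell with separate ranges. Ier3, an immediate-early survival gene, fell as well (-1.82). Chil3, the chitinase-like protein Ym1, had 89.8, 35.2, 136 and 68.9 FPKM at day 3 and 261, 421 and 532 FPKM at day 1, with every day 3 library under every day 1 library and a 0.20-fold ratio of the means (-2.42, SE 0.35, adjusted p = 3.55e-05).

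**Figure D2:**
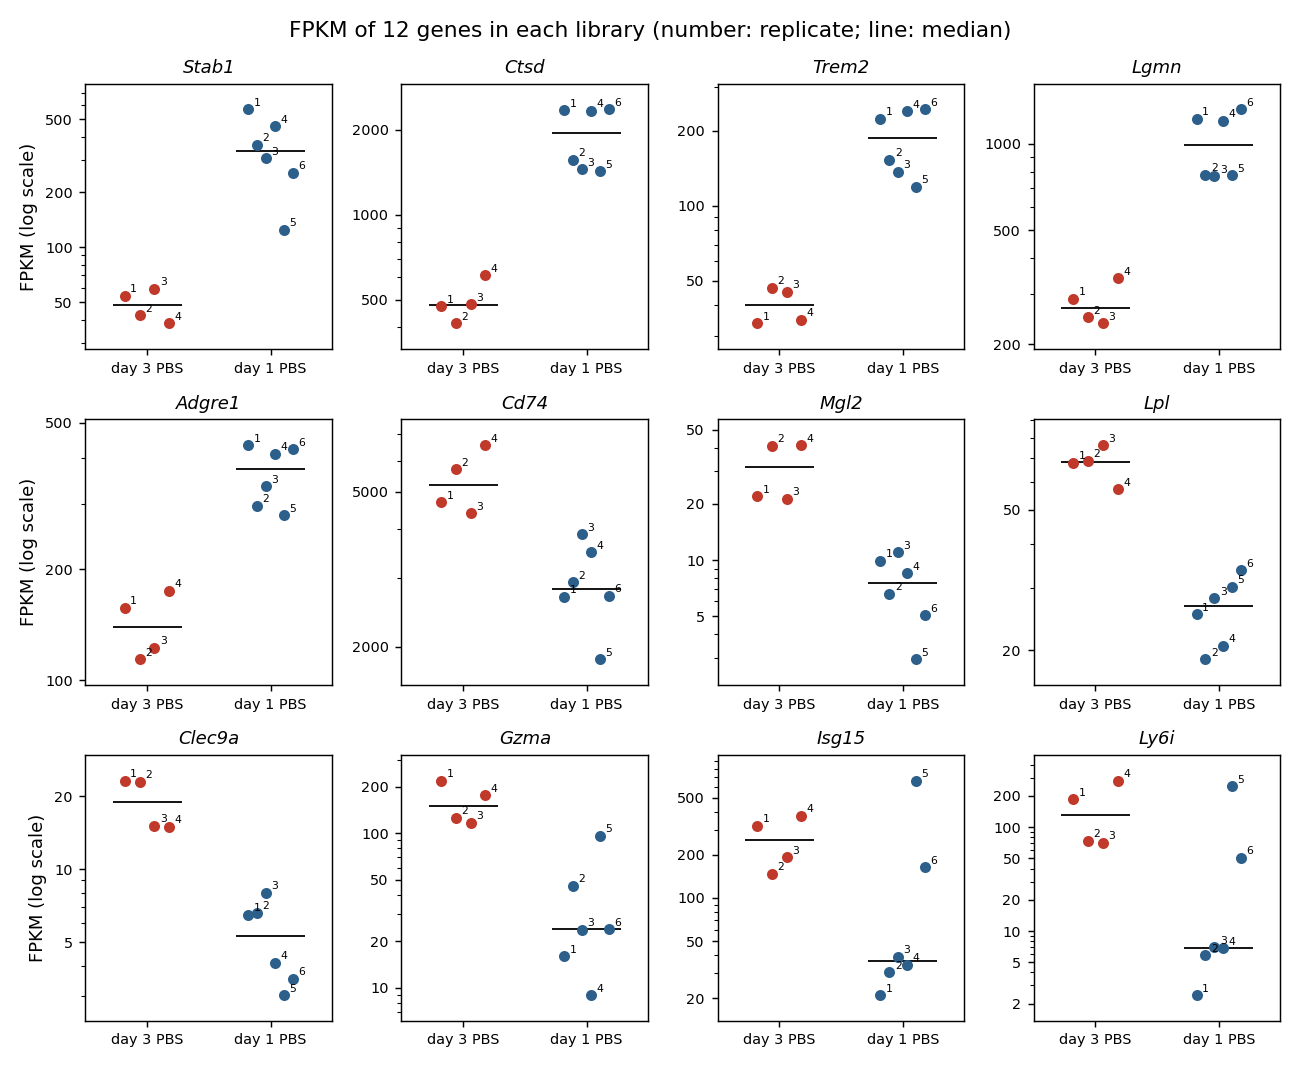
FPKM on a log axis of 12 genes in each of the 4 day 3 PBS libraries (red, left) and 6 day 1 PBS libraries (blue, right); numbers are replicates and lines are medians. Stab1, Ctsd, Trem2, Lgmn, Adgre1, Cd74, Mgl2, Lpl, Clec9a and Gzma do not overlap between the days, whereas for Isg15 and Ly6i day 1 replicates 5 and 6 reach or approach the day 3 values.

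Lysosomal genes fell together. Of 40 lysosomal hydrolases and membrane proteins 31 fell and 0 rose, with a median log2 change of -0.54, and for 23 of them every day 3 library lay under every day 1 library. Among the lysosomal proteases 8 of 15 fell (Ctsa, Ctsb, Ctsc, Ctsd, Ctsh, Ctsl, Lgmn and Tpp1) and 1 rose, Ctsw, which is known as a cathepsin of cytotoxic lymphocytes; without day 1 replicate 6 or day 3 replicate 4, 2 rose. Of the 16 tested subunits of the vacuolar ATPase, the pump that acidifies the compartment, 10 fell and 0 rose (median -0.39). Of 21 regulators of lysosome formation and autophagy 12 fell and 0 rose (median -0.46). The lists share genes with those above and below, among them the scavenger gene Scarb2, Cd68, Cd63 and some cathepsins. The macrophage marker levels given above differ between the days in the same direction.

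Ctsd, the aspartic protease cathepsin D, had 475, 413, 482 and 611 FPKM at day 3 and 1425, 1947 and 2358 FPKM at day 1. The lowest day 1 library had more than every day 3 library, and the log2 change was -1.92, SE 0.26, adjusted p = 1.93e-05. Lgmn, the asparaginyl endopeptidase legumain, had 289, 248, 237 and 340.2 FPKM at day 3 and 770.0, 990.0 and 1318 FPKM at day 1 (-1.83, SE 0.22, adjusted p = 6.71e-06). Cysteine cathepsins Ctsb (-1.65) and Ctsl (-1.56) fell by less, as did the serine carboxypeptidase Ctsa (-0.89) and the tripeptidyl peptidase Tpp1 (-0.90). Of the glycosidases Gusb fell by 0.94 and Glb1, the acid beta-galactosidase, by 1.05 on the log2 scale. Npc1, which exports cholesterol from lysosomes (-1.05), and Lamp1, a main protein of the lysosomal membrane (-0.91), fell too. Map1lc3b, which encodes the autophagosome protein LC3B, had 43.9, 43.1, 40.1 and 45.7 FPKM at day 3 and 59.5, 69.3 and 78.7 FPKM at day 1, a small change with little spread (-0.67, SE 0.082, adjusted p = 7.61e-06). Ulk1, the kinase that starts autophagy (-0.86), Flcn, folliculin, which acts in nutrient sensing at the lysosome (-0.84), and Tfe3, a transcription factor of lysosomal genes (-0.51), also fell. Tfeb and Mitf, which belong to the same factor family as Tfe3 and to the same list, were not called. With the macrophage marker level as a covariate 0 of the 40 hydrolases and membrane proteins and 3 of the 15 proteases were called lower.

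Many lysosomal genes carry an E-box, TCACGTG, that MiT/TFE transcription factors bind. RefSeq promoter windows of GRCm38.p6 (250 bases before to 50 after the start) were available for 9511 of the 11960 tested genes. The motif, searched on both strands, stood in a window of 7.03% of these genes, of 9.72% of those that fell and of 5.57% of those that rose; it was found in 9 of 32 hydrolases and membrane proteins with a window, in 3 of 11 proteases and in 4 of 11 proton pump subunits. The windows of 3 genes that fell are printed to show where these letters lie, with the motif on either strand in capitals. Printed windows were picked among those that hold the motif, and Lgmn has 2 windows. The site at 99 bases before the start of Ctsd reads on both strands, which gives overlapping matches. These matches are descriptions of sequence and not of binding.
Ctsd promoter (GRCm38.p6 chr7:142387778-142388077, minus strand): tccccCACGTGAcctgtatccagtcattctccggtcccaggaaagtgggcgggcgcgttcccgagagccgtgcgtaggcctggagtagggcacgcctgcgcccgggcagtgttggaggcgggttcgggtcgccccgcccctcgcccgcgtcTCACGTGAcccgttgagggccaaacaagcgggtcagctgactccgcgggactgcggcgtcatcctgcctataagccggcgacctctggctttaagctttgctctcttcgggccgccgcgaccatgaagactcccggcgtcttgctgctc
Lgmn promoter (GRCm38.p6 chr12:102439043-102439342, minus strand): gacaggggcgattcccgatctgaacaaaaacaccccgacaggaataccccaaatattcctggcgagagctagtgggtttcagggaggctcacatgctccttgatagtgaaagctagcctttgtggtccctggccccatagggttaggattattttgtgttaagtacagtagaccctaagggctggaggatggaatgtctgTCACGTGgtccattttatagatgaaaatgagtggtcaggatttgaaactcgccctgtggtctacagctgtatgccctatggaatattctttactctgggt
Lamp1 promoter (GRCm38.p6 chr8:13158911-13159210, plus strand): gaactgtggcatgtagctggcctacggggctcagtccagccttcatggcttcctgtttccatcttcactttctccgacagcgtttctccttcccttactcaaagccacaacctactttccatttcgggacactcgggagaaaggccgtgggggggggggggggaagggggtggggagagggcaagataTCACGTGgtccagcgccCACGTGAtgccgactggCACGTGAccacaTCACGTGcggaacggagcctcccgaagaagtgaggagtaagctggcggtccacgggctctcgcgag

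Lipid-associated macrophage genes, a set known from fatty and injured tissue, fell in 12 of 23 cases and rose in 2 (median -0.56). Of the members that fell, Cd63, Ctsb, Ctsd and Ctsl were already counted in the lysosomal lists above. Trem2, the lipid-sensing receptor that gives the set its name, had 33.7, 46.9, 45.3 and 34.9 FPKM at day 3 and 119, 188 and 244 FPKM at day 1. The ranges were far apart (-2.14, SE 0.31, adjusted p = 3.55e-05). Spp1, the secreted phosphoprotein osteopontin, had 54.1, 39.04, 31.8 and 30.4 FPKM at day 3 and 91.2, 224 and 295 FPKM at day 1 (-2.28, SE 0.46, adjusted p = 9.32e-04), and Gpnmb, a glycoprotein of lysosome-rich macrophages, fell likewise (-2.06). Apoe, the lipid carrier apolipoprotein E, fell by 0.93 on the log2 scale but missed the threshold without day 1 replicate 1, 4 or 6 or day 3 replicate 2 or 3 (adjusted p up to 0.11). Lpl, lipoprotein lipase, which frees fatty acids from triglyceride-rich particles, went against the set. It had 67.9, 68.8, 76.3 and 57.2 FPKM at day 3 and 18.8, 26.7 and 33.7 FPKM at day 1, with every day 3 library above every day 1 library (1.36, SE 0.23, adjusted p = 2.30e-04). Abca1, the cholesterol exporter, fell (-1.33, SE 0.28, adjusted p = 0.0012); in the cholesterol and lipid metabolism list 3 of 30 rose and 5 fell. The number that rose ran from 1 (without day 1 replicate 1, 4 or 6 or day 3 replicate 2 or 3) to 6 (without day 1 replicate 2) and was 5 without day 1 replicate 3, and the number that fell was 3 without day 3 replicate 2 or 3. The number that rose was 5 without day 3 replicates 1 and 4, 1 after median-ratio scaling and 1 in a fit of the PBS groups alone.

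Innate receptors changed in both directions. Of 20 Toll-like receptors and adaptors 10 fell, among them Tlr2, Tlr4, Cd14 and Ly96, which recognise bacterial lipids, and 3 rose. Those that rose were Tlr11 and Tlr12, which in mice bind the profilin of a protozoan parasite, and Tlr3, the sensor of double-stranded RNA. Tlr11 had 8.99, 8.26, 6.49 and 7.58 FPKM at day 3 and 1.31, 2.55 and 4.09 FPKM at day 1, without overlap (1.36, SE 0.17, adjusted p = 7.96e-06). For Tlr12 day 1 replicate 5 reached 6.96 FPKM, above the lowest day 3 library (1.34, SE 0.28, adjusted p = 0.0011). Tlr3 had 15.3, 8.56, 8.39 and 9.77 FPKM at day 3 and 2.49, 3.61 and 7.16 FPKM at day 1 (1.21, SE 0.25, adjusted p = 0.0011), and it is also counted as a marker of type 1 conventional dendritic cells. Of 16 Fc receptor and phagocytosis genes 7 fell and 0 rose. Fcgr3, a low-affinity IgG receptor, had 76.7, 52.6, 50.1 and 92.9 FPKM at day 3 and 147, 199 and 266 FPKM at day 1 (-1.58, SE 0.23, adjusted p = 4.82e-05), and Fcgrt, which recycles IgG, fell less (-1.16).

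Complement genes moved both ways, 7 rising and 9 falling of 20. Those that fell included the C1q chains, the receptors C3ar1, C5ar1 and C5ar2, and Itgam and Cfp, while C1s1, C2, C3, C4b, Cd55, Itgax and Serping1 rose. The C1q chains and Itgam were already counted among the macrophage markers that fell. C5ar1, the receptor for the fragment C5a, had 36.3, 28.2, 26.1 and 49.9 FPKM at day 3 and 67.7, 107 and 137 FPKM at day 1 (-1.53, SE 0.25, adjusted p = 1.42e-04). Itgam, the alpha chain of complement receptor 3 (-1.08), and Cfp, the convertase stabiliser properdin (-1.12), fell with separate ranges. Itgax, the alpha chain of complement receptor 4 and a marker of dendritic cells (CD11c), had 47.4, 41.3, 42.9 and 55.05 FPKM at day 3 and 12.02, 17.6 and 28.7 FPKM at day 1, so the CD11b and CD11c genes changed in opposite directions (1.36, SE 0.24, adjusted p = 2.47e-04). Cd55, which speeds the decay of complement convertases, rose (1.49, SE 0.31, adjusted p = 0.0010). The number of complement genes that rose was 4 without day 3 replicate 1 and 3 without day 3 replicates 1 and 4.

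Alternative activation markers were split, 9 of 19 rising and 4 falling (median 0.52). Mgl2, a galactose-binding lectin also found on type 2 conventional dendritic cells, had 21.9, 40.9, 21.3 and 41.2 FPKM at day 3 and 2.94, 7.56 and 11.03 FPKM at day 1. Every day 3 library lay above the day 1 range, and day 1 replicate 5 was the lowest (1.98, SE 0.25, adjusted p = 1.15e-05). Retnla, the secreted resistin-like protein, had 304, 356, 96.8 and 462 FPKM at day 3 and 40.9, 73.02 and 99.8 FPKM at day 1; day 3 replicate 3 lay within the day 1 range (1.92, SE 0.34, adjusted p = 3.09e-04). Ear2, an eosinophil-associated ribonuclease also made by alveolar and other macrophages, rose (1.61, SE 0.25, adjusted p = 8.18e-05). Chil3 and Mrc1, members of the same list, fell as described above. Arg1, the urea-cycle arginase used as a marker of this state, had 30.2, 5.58, 4.93 and 20.4 FPKM at day 3 and 14.02, 19.96 and 44.3 FPKM at day 1. It varied widely within day 3 and was not called (-0.85, SE 0.69, adjusted p = 0.35), and its estimate changed sign when the level of macrophage, acinar, lymphocyte or dendritic cell markers was added as a covariate.

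Monocyte genes also moved both ways, 7 of 22 rising and 4 falling. Those that rose included markers of patrolling, Ly6C-low monocytes, Treml4, Ace, Spn and Eno3. Treml4 had 24.6, 18.05, 21.6 and 24.9 FPKM at day 3 and 3.56, 5.43 and 28.5 FPKM at day 1, the highest day 1 value being that of replicate 5 (1.501, SE 0.33, adjusted p = 0.0019); without day 1 replicates 5 and 6 the change was 2.07 (adjusted p = 9.44e-07). Ace, the angiotensin-converting enzyme, had 16.9, 18.1, 42.1 and 14.3 FPKM at day 3 and 4.87, 6.14 and 22.8 FPKM at day 1 (1.33, SE 0.31, adjusted p = 0.0027). Thbs1, the matrix protein thrombospondin 1, had 14.9, 9.20, 21.7 and 14.3 FPKM at day 3 and 24.1, 65.5 and 152 FPKM at day 1, with separate ranges (-2.03, SE 0.41, adjusted p = 8.56e-04). Without day 3 replicate 3, 4 monocyte genes rose, and without day 3 replicates 1 and 4, 4 did.

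Genes of antigen presentation on MHC class II rose. Of 16 class II genes 11 rose and 0 fell, with a median log2 change of 0.77, and for 9 of them all day 3 libraries lay above all day 1 libraries, where 8.31% of all genes did. Cd74, the invariant chain, had 4694, 5699.9, 4397 and 6572 FPKM at day 3 and 1858, 2815 and 3883 FPKM at day 1. Day 1 replicate 5 was the lowest library, and the log2 change was 0.89, SE 0.18, adjusted p = 8.42e-04. H2-Aa (0.97) and H2-Eb1 (0.97), which encode class II chains, rose with separate ranges. Ciita, the transactivator of the class II genes, had 36.6, 29.5, 46.9 and 34.5 FPKM at day 3 and 13.7, 22.95 and 30.8 FPKM at day 1. Its groups overlapped (0.70, SE 0.21, adjusted p = 0.013), and without day 3 replicate 3 the adjusted p was 0.059. Under median-ratio scaling 11 members rose and 1 fell.

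Dendritic cell markers rose beside class II. Of 10 markers of type 1 conventional dendritic cells, the cross-presenting subset, 9 rose and 0 fell; of 11 of type 2 cells 6 rose and 0 fell; and of 12 shared or maturation markers 11 rose and 0 fell. Clec9a, a receptor for the exposed actin of dead cells, had 23.1, 22.8, 15.04 and 14.98 FPKM at day 3 and 3.03, 5.31 and 7.98 FPKM at day 1. No day 1 library reached the lowest day 3 library, and the log2 change was 1.70, SE 0.20, adjusted p = 6.41e-06. Xcr1, the chemokine receptor that marks the same subset, had 9.36, 9.10, 10.04 and 6.48 FPKM at day 3 and 1.16, 2.15 and 4.01 FPKM at day 1 (1.59, SE 0.23, adjusted p = 4.93e-05). Itgae, the integrin chain CD103 (1.22), and Cd209a, a lectin of type 2 cells (1.29), rose with separate ranges. Flt3, the receptor for the growth factor of dendritic cell precursors, rose by 0.60 with overlap.

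Maturation genes of dendritic cells rose with more spread. Ccl22, a chemokine that draws regulatory T cells, had 52.1, 121, 62.8 and 44.7 FPKM at day 3 and 5.65, 15.4 and 46.7 FPKM at day 1, where replicate 5 was highest (1.97, SE 0.51, adjusted p = 0.0050). Fscn1, the actin-bundling protein fascin, had 139, 131, 150.0 and 73.9 FPKM at day 3 and 18.1, 40.2 and 151 FPKM at day 1; day 1 replicate 5 exceeded all day 3 libraries (1.45, SE 0.45, adjusted p = 0.015). Il12b, the p40 chain shared by interleukins 12 and 23, had 8.81, 5.54, 4.58 and 9.36 FPKM at day 3 and 0.570, 1.07 and 3.98 FPKM at day 1, without overlap (1.79, SE 0.29, adjusted p = 1.27e-04). Cd274, which encodes the checkpoint ligand PD-L1, rose (1.57, SE 0.43, adjusted p = 0.0077), although day 1 replicate 5 reached 76.6 FPKM and the adjusted p without day 3 replicates 1 and 4 was 0.098. Vsir, the inhibitory receptor VISTA of myeloid cells, had 89.1, 81.2, 88.00 and 96.5 FPKM at day 3 and 117, 149 and 185 FPKM at day 1 and fell (-0.72, SE 0.15, adjusted p = 0.0010). Levels of the type 1 list ran from 3.64 to 4.04 at day 3 and 2.65 to 3.33 at day 1 on the log2 scale, so they do not overlap; with a dendritic cell marker level as a covariate limma called 0 genes, while 822 had an unadjusted p under 0.05. Without day 3 replicate 1 or 2 the number of maturation and shared markers that rose was 7, and in a fit of the PBS groups alone it was 5.

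**Figure D3:**
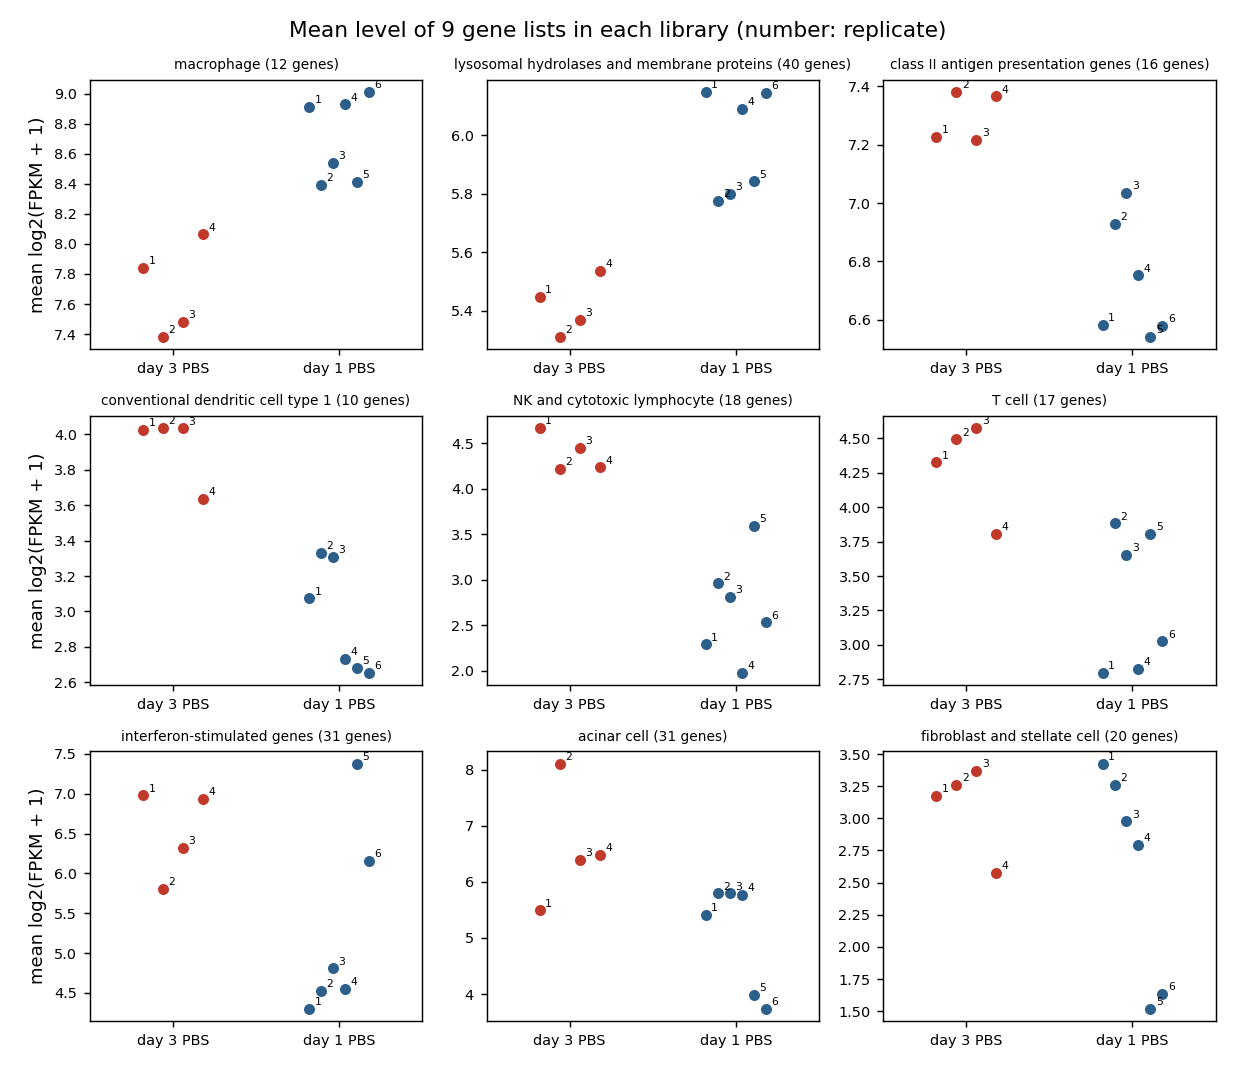
Mean log2(FPKM + 1) over the measured genes of 9 lists in each day 3 PBS library (red, left) and day 1 PBS library (blue, right); numbers are replicates. The macrophage, lysosomal, class II, type 1 dendritic cell and cytotoxic lymphocyte levels do not overlap between the days, while day 1 replicates 5 and 6 stand apart in the interferon, acinar and fibroblast panels.

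Interferon-stimulated genes were higher at day 3 than in 4 of the 6 day 1 libraries: their mean level was 5.81 to 6.98 at day 3, against 4.30 to 4.81 in day 1 replicates 1 to 4 on the log2 scale. Of 31 tested 18 rose and 0 fell (median 1.24), and of 16 interferon-induced GTPases, which attack vacuoles that hold pathogens, 11 rose and 0 fell (median 1.43). Isg15, a ubiquitin-like modifier, had 319, 147, 193 and 375 FPKM at day 3 and 20.9, 36.5 and 656 FPKM at day 1. Day 1 replicates 5 and 6 stood at 656 and 164 FPKM, and replicate 5 was the highest of all 10 libraries; the log2 change was 1.82, SE 0.70, adjusted p = 0.045. Ifit3, which binds foreign RNA with its partners, had 177, 63.1, 97.9 and 135 FPKM at day 3 and 8.18, 13.5 and 217 FPKM at day 1, again with replicate 5 highest (2.07, SE 0.73, adjusted p = 0.031). Its close relatives Ifit2 (2.09), Ifit3b (2.12) and Ifit1bl1 (1.98) are similar in sequence to each other, and fragments of such copies cannot be assigned with certainty. Irf7 (1.67), the transcription factor that amplifies type I interferon, the oligoadenylate synthetase Oas3 (1.69) and Xaf1 (1.24), which favours cell death, rose as well. Ifi213 (1.91) and Ifi214 (1.98) of the DNA-sensing AIM2-like family rose, as did the GTPases Gbp10 (2.01), Gbp4 (1.96), Gbp9 (1.60) and Tgtp1 (1.98).

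These calls turned on which libraries were kept and which entered the fit. In a fit of the PBS groups alone, which does not share its estimate of spread with the other libraries, 1 of 31 interferon-stimulated genes and 3 of 16 GTPases rose, and of the genes named above Ifi213, Ifi214, Gbp4 and Gbp9 kept their calls. Without day 1 replicates 5 and 6, 27 of 31 interferon-stimulated genes and 16 of 16 GTPases rose, and Isg15 was at 2.95 (adjusted p = 1.43e-04). Without day 3 replicates 1 and 4, 0 and 0 rose by limma, the genes named above other than Ifi214 lost their calls, and Isg15 was at 1.31 (adjusted p = 0.29). Leaving out 1 library at a time gave 1 to 26 interferon-stimulated genes and 3 to 16 GTPases that rose. The count of interferon-stimulated genes was 8 or lower without day 1 replicate 1, 2, 3 or 4 or day 3 replicate 1, 3 or 4, and the GTPase count was 7 or lower without day 1 replicate 1 or 4 or day 3 replicate 1 or 4. Isg15, Irf7, Ifit2, Ifit3 and Ifit3b each lost their call without any one of day 1 replicates 1 to 4 or day 3 replicates 1, 3 and 4 (adjusted p up to 0.11 for Isg15). Oas3 and Xaf1 lost theirs without day 1 replicate 1 or 4 or day 3 replicate 1 or 4, and Ifit1bl1 and Tgtp1 without day 1 or day 3 replicate 1. Of 30 interferon gamma and STAT pathway genes 10 rose and 3 fell, and 6 rose without any one of day 1 replicates 1 to 4 or day 3 replicates 1, 3 and 4. That number was 16 without day 1 replicates 5 and 6, 6 without day 3 replicates 1 and 4, 6 after median-ratio scaling and 5 in a fit of the PBS groups alone. After median-ratio scaling 4 interferon-stimulated genes rose and 0 fell. For none of the 31 genes did all day 3 libraries lie above all day 1 libraries.

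The core of the interferon-stimulated response element, a pair of GAAA runs with 2 free bases between them, was searched on both strands of the same windows. It stood in 4.17% of tested genes with a window, in 16 of 25 interferon-stimulated genes and in 9 of 10 GTPases. The windows of Ifit3 and Isg15 are printed as examples, with the motif in capitals; in Isg15 the 3 matches overlap. A match is a description of the letters alone.
Ifit3 promoter (GRCm38.p6 chr19:34583279-34583578, plus strand): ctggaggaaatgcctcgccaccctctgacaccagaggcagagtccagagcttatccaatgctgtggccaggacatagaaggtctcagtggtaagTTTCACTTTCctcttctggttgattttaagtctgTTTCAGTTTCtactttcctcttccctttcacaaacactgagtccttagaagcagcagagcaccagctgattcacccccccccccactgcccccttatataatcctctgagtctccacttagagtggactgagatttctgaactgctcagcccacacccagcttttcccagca
Isg15 promoter (GRCm38.p6 chr4:156200769-156201068, minus strand): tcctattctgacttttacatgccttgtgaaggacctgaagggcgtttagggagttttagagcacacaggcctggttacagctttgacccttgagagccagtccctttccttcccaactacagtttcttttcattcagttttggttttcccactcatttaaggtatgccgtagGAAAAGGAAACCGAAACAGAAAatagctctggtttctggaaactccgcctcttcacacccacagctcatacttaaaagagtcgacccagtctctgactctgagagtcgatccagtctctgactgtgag

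Most genes of the class I and peptide-loading list also rose, and the same libraries bore on the count. Of 20 class I and peptide-loading genes 14 rose and 0 fell (median 0.53), 17 rose without day 1 replicates 5 and 6, and 3 rose without day 3 replicates 1 and 4. After median-ratio scaling 9 rose, and in a fit of the PBS groups alone 6 did. The heavy chain genes H2-K1 and H2-D1 and the light chain gene B2m were not called, nor were Psmb10, Calr and Pdia3. Tap1, a subunit of the peptide pump of the endoplasmic reticulum, had 176, 128, 183 and 164 FPKM at day 3 and 62.9, 88.97 and 191 FPKM at day 1 (0.77, SE 0.20, adjusted p = 0.0062). Nlrc5, the transactivator of class I genes, rose (1.16, SE 0.29, adjusted p = 0.0042). Without day 3 replicates 1 and 4 the adjusted p was 0.060 for Tap1 and 0.056 for Nlrc5. Ly6 genes, which lie in clusters of near copies and whose fragments may be split between them, rose in 5 of 7 tested cases (Ly6a, Ly6c1, Ly6c2, Ly6d and Ly6i), and Ly6e (0.18) and Ly6k (-0.20) were not called. Ly6i had 186, 73.7, 70.7 and 279 FPKM at day 3 and 2.41, 6.89 and 248 FPKM at day 1. Its log2 change was 2.99, SE 0.80, adjusted p = 0.0064, and day 1 replicate 5 at 248 FPKM lay within the day 3 range; the change was 4.39 without day 1 replicates 5 and 6 (adjusted p = 3.92e-06) and 2.17 without day 3 replicates 1 and 4 (adjusted p = 0.12). Ly6a, the stem cell antigen Sca-1 (1.53), and Ly6c2, the marker of inflammatory monocytes (1.53), rose with overlap, as did Ly6c1 (1.22) and Ly6d (1.07). Ly6a and Ly6c2 lost their calls without day 1 replicate 1 or 4 or day 3 replicate 1 or 4 (adjusted p up to 0.074 and 0.13). Without day 1 or day 3 replicate 1, 2 Ly6 genes rose, and without day 1 or day 3 replicate 4, 3 did. Without day 3 replicates 1 and 4 limma called 0 of them, while Ly6a, Ly6c2 and Ly6i had adjusted p-values of 0.25, 0.36 and 0.12, and a fit of the PBS groups alone called 1.

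Cytotoxic lymphocyte genes rose in nearly the whole list, 17 of 18 with a median log2 change of 1.62; Ccl5 was the one without a call, and for 12 of them all day 3 libraries lay above all day 1 libraries. Gzma, the serine protease granzyme A, had 218, 126, 117 and 176 FPKM at day 3 and 8.97, 23.9 and 96.3 FPKM at day 1. Day 1 replicate 5 was the highest of its group and still under every day 3 library (2.47, SE 0.41, adjusted p = 1.47e-04). Klra7, an inhibitory Ly49 receptor, had 16.02, 9.42, 10.03 and 10.4 FPKM at day 3 and 0.474, 1.43 and 3.26 FPKM at day 1 (2.28, SE 0.25, adjusted p = 4.15e-06); the Ly49 genes are near copies of each other. Ncr1, the activating receptor NKp46, had 17.9, 9.28, 16.8 and 9.29 FPKM at day 3 and 0.735, 2.19 and 5.09 FPKM at day 1 (2.11, SE 0.27, adjusted p = 1.17e-05). Xcl1, the lymphocyte-made ligand of Xcr1, had 31.9, 26.05, 25.8 and 16.6 FPKM at day 3 and 2.36, 4.72 and 8.04 FPKM at day 1, so ligand and receptor rose in the same libraries (2.16, SE 0.29, adjusted p = 2.19e-05). Ifng, which encodes interferon gamma, had 6.28, 4.54, 8.56 and 6.31 FPKM at day 3 and 0.785, 1.73 and 5.44 FPKM at day 1, with replicate 5 within the day 3 range (1.30, SE 0.33, adjusted p = 0.0046). The count was 17 without day 1 replicates 5 and 6 and 16 without day 3 replicates 1 and 4.

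T cell markers rose in 12 of 17 cases and fell in 0 (median 1.01). Cd3e, a chain of the T cell receptor complex, had 50.4, 53.8, 54.3 and 31.3 FPKM at day 3 and 12.9, 22.5 and 32.6 FPKM at day 1. The groups overlapped through day 3 replicate 4 (1.09, SE 0.39, adjusted p = 0.034), and the call was lost without day 1 replicate 1, 4 or 6 or day 3 replicate 1, 2 or 3 (adjusted p up to 0.084). Cd8a (1.25, SE 0.37, adjusted p = 0.012) and the T cell factor Tcf7 (1.13, SE 0.34, adjusted p = 0.014) rose with overlap. The number of T cell markers that rose was 5 without day 3 replicate 3 and 6 or 7 without day 1 replicate 1 or 4 or day 3 replicate 1 or 2. Of 12 B cell markers 4 rose and 0 fell, and 1 rose without day 1 replicate 1, 4 or 6 or day 3 replicate 1, 2 or 3. Without day 1 replicates 5 and 6, 1 rose, and without day 3 replicates 1 and 4, 2 did. Cd79a, part of the B cell receptor, had 213, 296, 266 and 203 FPKM at day 3 and 84.7, 136 and 251 FPKM at day 1 and was not called (0.77, adjusted p = 0.16). Of 5 markers of type 2 innate lymphoid cells 3 rose, Gata3, Il1rl1 and Kit. With the level of lymphocyte markers as covariate 438 genes rose and 585 fell. In that fit 7 of 40 lysosomal hydrolases and membrane proteins and 5 of 12 macrophage markers were called lower. For class II 2 of 16 and for class I 3 of 20 genes were called higher. The lymphocyte level does not overlap between the PBS libraries of the 2 days, so level and day cannot be told apart.

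Chemokine genes changed in both directions, 4 of 25 rising and 6 falling. Cxcl2, which draws neutrophils, had 64.96, 95.4, 63.4 and 111 FPKM at day 3 and 108, 373 and 552 FPKM at day 1. One day 3 library overlapped with the lowest day 1 library, replicate 5 (-1.94, SE 0.44, adjusted p = 0.0021). Pf4, platelet factor 4, which macrophages also make, had 51.6, 101, 83.5 and 67.3 FPKM at day 3 and 156, 294 and 381 FPKM at day 1 (-1.84, SE 0.36, adjusted p = 7.65e-04). Ccl9, a monocyte chemokine of mice, fell with overlap (-1.09, SE 0.29, adjusted p = 0.0067). Among the genes that rose, Ccl22 and Xcl1 were given above, and Cxcl9, an interferon gamma target that binds CXCR3, was at 1.87, SE 0.73, adjusted p = 0.049 but lost its call without any one of day 1 replicates 1 to 4 or day 3 replicate 1, 3 or 4 (adjusted p up to 0.16). Cxcl10, which binds the same receptor, was not called (1.76, adjusted p = 0.094) and passed without day 1 replicate 5. Of 22 interleukin 1, inflammasome and cytokine genes 4 rose (Gsdmd, Aim2, Il12b and Lif) and 3 fell (Nlrp3, Osm and Nfkbia); without day 1 replicate 5, 8 rose, and 0 or 1 fell by limma without day 1 replicate 1, 3 or 4 or day 3 replicate 1 or 2. Without day 1 replicates 5 and 6, 8 rose, without day 3 replicates 1 and 4, 1 fell, and after median-ratio scaling 5 fell.

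Growth factor and matrix genes of repair changed in 12 of 28 cases, 4 rising and 8 falling. Pdgfb, a growth factor for pericytes and stellate cells, had 9.53, 11.6, 14.4 and 9.51 FPKM at day 3 and 3.74, 5.22 and 6.67 FPKM at day 1, with separate ranges (1.000, SE 0.19, adjusted p = 6.37e-04). Tgfbi, a matrix protein induced by TGF-beta, had 219, 190.4, 223 and 334 FPKM at day 3 and 349.9, 457 and 530.4 FPKM at day 1 (-0.88, SE 0.17, adjusted p = 5.81e-04). Hgf, hepatocyte growth factor, was low at both days, 1.19, 1.19, 0.919 and 0.659 FPKM at day 3 and 2.38, 2.97 and 4.14 FPKM at day 1, and fell (-1.05, SE 0.21, adjusted p = 9.31e-04). The number that fell was 4 without day 1 replicate 1 and 5 without day 1 replicate 4 or day 3 replicate 2; the number that rose was 7 without day 1 replicate 5 and 2 without day 1 replicate 6 or day 3 replicate 1 or 3.

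Genes of lactate handling were called about as often as all genes. Of 21 tested 4 rose, 3 fell and 14 were not called (median 0.16), where 34.3% of all genes were called. Ldha, the lactate dehydrogenase chain that favours lactate formation, had 58.5, 82.5, 74.04 and 82.5 FPKM at day 3 and 63.1, 67.1 and 81.5 FPKM at day 1, with an estimate of 0.072, SE 0.17, adjusted p = 0.77 that changed sign under median-ratio scaling. Ldhb, which favours the reverse reaction, fell (-0.77, SE 0.20, adjusted p = 0.0057). Slc16a1, the monocarboxylate transporter MCT1, was at 0.69, SE 0.29, adjusted p = 0.070 and passed without day 1 replicate 2, and its chaperone Bsg fell slightly (-0.36, SE 0.10, adjusted p = 0.0063). Gpr132, a receptor reported to sense lactate on macrophages, had 54.9, 72.1, 74.7 and 46.02 FPKM at day 3 and 25.96, 37.7 and 46.2 FPKM at day 1 and rose with slight overlap (0.77, SE 0.17, adjusted p = 0.0019). Pdk1, the kinase that holds pyruvate out of mitochondria, rose without overlap (0.72, SE 0.16, adjusted p = 0.0018). Of 25 glycolysis and hypoxia-response genes 1 rose and 0 fell, which is below the shares of all genes, and the count that rose was 0 by limma without day 1 replicate 1, 3, 4 or 6 or any one day 3 library. The gene called was Pfkfb3, which makes an activator of glycolysis (0.45, adjusted p = 0.047).

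Of 16 genes of iron, haem and zinc handling 9 fell and 2 rose (median -0.68), and 1 rose without day 3 replicate 1. Blvrb, a biliverdin reductase of haem breakdown, had 23.6, 29.8, 33.4 and 32.8 FPKM at day 3 and 41.9, 85.03 and 103 FPKM at day 1. All day 3 libraries lay under all day 1 libraries (-1.37, SE 0.20, adjusted p = 5.16e-05). Hmox1, haem oxygenase 1, which opens the haem ring (-1.07), and Fth1, the ferritin heavy chain (-0.81), fell too. Of 35 respiratory chain subunits 9 fell and 1 rose, with Cox4i1 of complex IV at -0.45, SE 0.12, adjusted p = 0.0059; the number that fell ran from 2 (without day 3 replicate 1) to 13 and was 5 or lower without day 1 replicate 1, 3 or 4 or day 3 replicate 3. That number was 1 without day 3 replicates 1 and 4, 15 after median-ratio scaling and 5 in a fit of the PBS groups alone. The gene that rose was Cycs, cytochrome c, and 0 rose after median-ratio scaling or without day 1 replicate 1, 4 or 6 or day 3 replicate 1, 2 or 4. Of 24 citrate cycle genes 8 fell and 2 rose (Dld and Sucla2, of which at most 1 was called without day 1 replicate 1 or 4 or day 3 replicate 1, 2 or 4), and 5 fell without day 1 replicate 1 or 4 or day 3 replicate 1, 3 without day 3 replicates 1 and 4 and 5 in a fit of the PBS groups alone.

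Several lists moved little. Of 22 endoplasmic reticulum stress genes limma called 0 higher and 0 lower, of 44 ribosomal protein genes 2 and 0, and of 40 cell cycle genes 1 and 1. The 2 ribosomal calls were 1 or 0 without day 1 replicate 1, 4, 5 or 6 or day 3 replicate 1, 2 or 4, and the lower cell cycle call, Cenpa, was 0 without day 1 replicate 1, 2, 3, 4 or 6 or day 3 replicate 1, 3 or 4. Without day 1 replicates 5 and 6, 6 cell cycle genes fell, after median-ratio scaling 3 endoplasmic reticulum stress genes fell, and after quantile normalization 6 ribosomal protein genes rose. The gene that rose in the cell cycle list was Ccnd1, cyclin D1, which had 36.95, 36.3, 46.7 and 46.9 FPKM at day 3 and 12.6, 18.4 and 22.2 FPKM at day 1, with separate ranges (1.22, SE 0.22, adjusted p = 2.77e-04). Mki67, the proliferation marker Ki-67, had 16.5, 18.7, 26.8 and 12.7 FPKM at day 3 and 9.35, 23.4 and 49.1 FPKM at day 1. Day 1 replicates 5 and 6 were its lowest libraries, and it was not called (-0.19, SE 0.38, adjusted p = 0.73). Among 27 immediate-early genes 5 rose and 2 fell, and without day 1 replicates 5 and 6, 5 rose and 11 fell; leaving out day 1 replicate 5 alone gave 9 that fell, and day 3 replicate 3 alone gave 2 that rose. Without day 3 replicates 1 and 4, 3 rose, and after median-ratio scaling 3 did. Egr3, a zinc finger factor of activated cells (1.502, SE 0.29, adjusted p = 6.00e-04), and Myc (1.11, SE 0.29, adjusted p = 0.0051) rose without overlap, while Fos, the AP-1 chain induced by cell handling as well as by signals, fell (-0.51, SE 0.18, adjusted p = 0.031) but missed the threshold without day 1 replicate 1, 3 or 4 or day 3 replicate 1 or 2 (adjusted p up to 0.11).

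Genes of pancreatic acinar cells rose in 18 of 31 tested cases and fell in 0 (median 1.43). Pdia2, the pancreatic protein disulfide isomerase, had 12.95, 71.6, 23.1 and 21.5 FPKM at day 3 and 0.606, 2.67 and 4.28 FPKM at day 1 (3.08, SE 0.42, adjusted p = 2.32e-05). Cpb1, procarboxypeptidase B, had 258, 1882, 615 and 523 FPKM at day 3 and 41.1, 162 and 201 FPKM at day 1, with day 3 replicate 2 the highest (2.44, SE 0.52, adjusted p = 0.0014). Prss1 (3.00) and Prss3b (2.68), trypsinogens of a family of near copies, the lipase Cel (2.57), and Cuzd1 (2.42), Tmed6 (2.22), Pla2g1b (2.03), Tff2 (2.001) and Serpini2 (1.996), genes with large rises outside the marker lists that are known from acinar or other gut-lining cells, also rose. Cpa1, carboxypeptidase A1, was not called (0.94, adjusted p = 0.18). The count of acinar genes that rose was 10 without day 3 replicate 2 and 10 without day 1 replicates 5 and 6, the libraries with the lowest acinar level, and 11 in a fit of the PBS groups alone. With the acinar level as a covariate 1 of 17 T cell markers, 5 of 16 class II genes, 28 of 31 interferon-stimulated genes and 17 of 30 interferon gamma and STAT pathway genes rose. Fibroblast markers rose in 3 of 19 cases, and in 0 by limma without day 1 replicates 5 and 6 together, without day 1 replicate 6 or without day 3 replicate 2 or 3, and in 1 in a fit of the PBS groups alone; Dcn, the matrix proteoglycan decorin, had 67.4, 64.9, 54.97 and 41.7 FPKM at day 3 and 4.48, 29.9 and 48.6 FPKM at day 1 (1.49, SE 0.57, adjusted p = 0.046) and kept its call only without day 1 replicate 1, 2 or 3. Of 13 endothelial markers 4 rose, Pecam1 among them (1.13, SE 0.27, adjusted p = 0.0033), and 7 rose without day 3 replicate 4 and 9 without day 3 replicates 1 and 4. Of 13 neutrophil markers 0 rose and 1 fell (Padi4), and of 10 plasma cell markers limma called 0 in either direction. The part of these cell types in the other results was not tested beyond the covariate values given above.

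The same interval with lactate gave a second measure of the step in 10 other libraries. From day 1 to day 3 with lactate 331 genes rose (2.77%) and 222 fell (1.86%), and the PBS and lactate changes differed by limma for 1280 genes (10.7%), with the PBS change above the lactate change for 711 (5.94%) and below it for 569 (4.76%). Of the 2569 genes that rose with PBS, 116 also rose and 56 fell with lactate by their calls. Of the 1534 that fell with PBS, 67 fell and 3 rose. Called or not, the lactate estimate had the same sign for 1841 of the 2569 and for 1012 of the 1534. Chil3 fell in both, -2.42 with PBS and -2.69 with lactate (difference 0.26, SE 0.49, adjusted p = 0.78), as did Spp1 (-2.28 and -2.53) and Ms4a4a (-1.86 and -1.70). Mgl2 (1.98 and 2.27), Retnla (1.92 and 1.96), Lpl (1.36 and 1.31) and Cd74 (0.89 and 1.11) rose in both. For class II genes the median log2 change was 0.77 with PBS and 0.56 with lactate, and the difference was called for 0 of 16; 0 was also the count for the 23 lipid-associated genes, whose medians were -0.56 and -0.37.

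Other groups of genes changed differently under PBS and lactate. For macrophage markers the median log2 change was -1.03 with PBS and -0.062 with lactate, and the difference was called for 5 of 12. Stab1 changed by -2.68 with PBS and -0.70 with lactate (difference -1.98, SE 0.43, adjusted p = 0.0081), Csf1r by -1.07 and 0.020 (adjusted p = 0.0090), F13a1 by -1.58 and 0.011 (adjusted p = 0.0079) and Blvrb by -1.37 and 0.12 (adjusted p = 0.0052). Interferon-stimulated genes had medians of 1.24 with PBS and -1.68 with lactate, where 22 fell, and 28 of 31 differed. Isg15 changed by 1.82 with PBS and -3.04 with lactate (difference 4.87, SE 0.99, adjusted p = 0.0061). Cytotoxic lymphocyte genes had medians of 1.62 and 0.045, and 17 of 18 differed; Gzma changed by 2.47 with PBS and -0.92 with lactate (adjusted p = 0.0046). Shared and maturation markers of dendritic cells had medians of 1.001 and -0.77, with 10 of 12 differing, among them Fscn1 (1.45 and -1.62, adjusted p = 0.0066). The count of 1280 rested in part on single libraries: it was 746, 766 and 2262 without day 1 PBS replicates 1, 4 and 5, 799 without day 3 PBS replicate 1, 2154 without day 1 lactate replicate 6 and 622 without day 3 lactate replicate 2. It was 2516 without day 1 PBS replicates 5 and 6 and 356 without day 3 PBS replicates 1 and 4. Replicates 5 and 6 of day 1 lactate, whose fibroblast levels also stood apart, entered the lactate change.

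**Figure D4:**
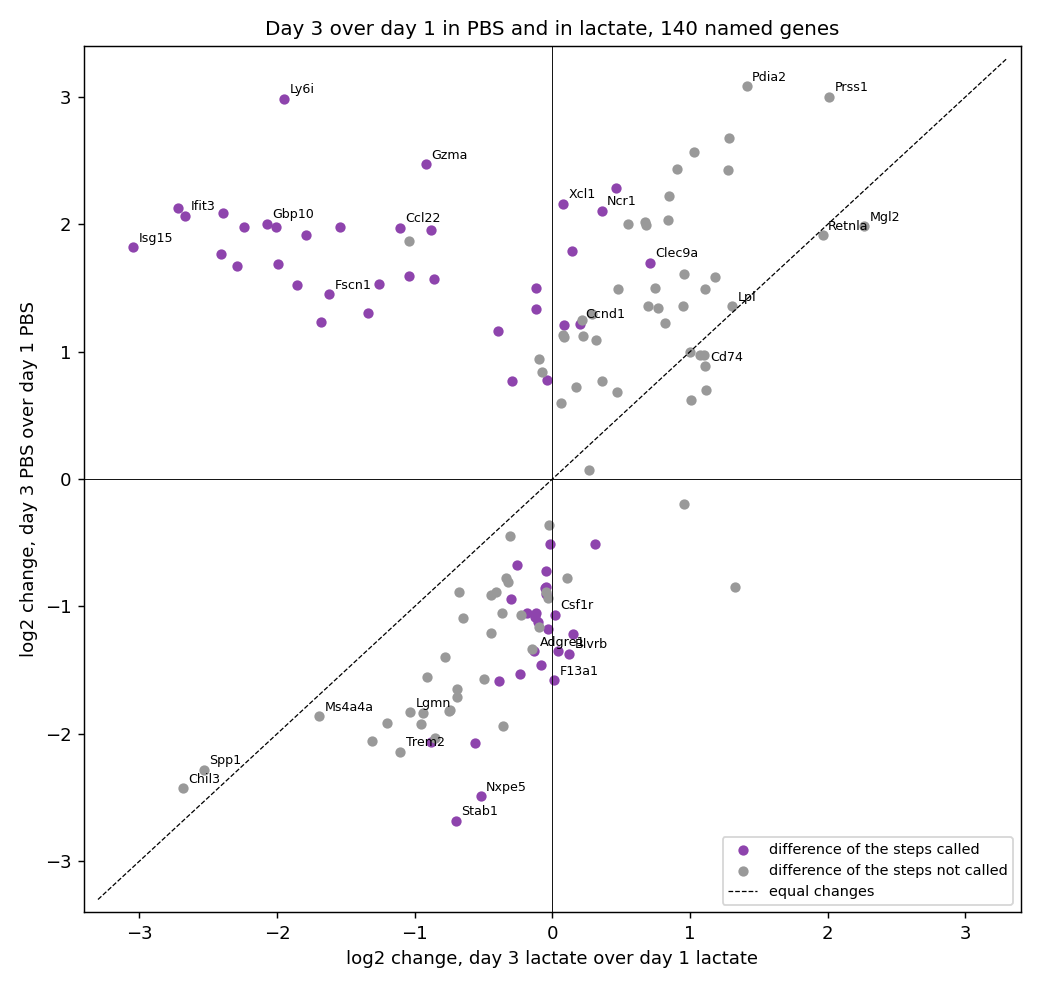
Log2 change from day 1 to day 3 with PBS (vertical axis) against that with lactate (horizontal axis) for the 140 genes named in the text, purple where the difference between the changes was called and grey where it was not; the dashed line marks equal changes. Isg15 and other interferon genes lie at upper left, high at day 3 with PBS and low with lactate, while Chil3, Spp1, Mgl2 and Retnla lie near the line.

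The levels in the NC and D0 libraries place the day 3 PBS values of the leading genes. Spp1 averaged 11.2 ± 3.32 FPKM in NC, 2015 ± 730.3 in D0, 202 ± 75.9 in day 1 PBS and 38.8 ± 10.8 in day 3 PBS libraries (SD, n = 3, 5, 6 and 4). Ctsd averaged 504 ± 48.1, 3303 ± 726, 1910.2 ± 476 and 495 ± 83.5 FPKM in the same order, so that its day 3 range (413 to 611 FPKM) overlapped with that of NC (475 to 559 FPKM). Stab1 averaged 274 ± 70.98, 147 ± 13.3, 345 ± 156 and 48.4 ± 9.77 FPKM, and its day 3 libraries lay under all libraries of the 3 other groups. F13a1 averaged 440.0 ± 91.5, 372 ± 93.1, 264 ± 90.7 and 83.4 ± 5.41 FPKM with the day 3 libraries again the lowest. Cd74 averaged 7716 ± 704, 569.9 ± 97.7, 2925 ± 705 and 5341 ± 992 FPKM, and Retnla 2623 ± 674, 12.98 ± 5.58, 71.7 ± 19.7 and 305 ± 153 FPKM; for Retnla every day 3 library remained under every NC library. Gzma averaged 10.4 ± 0.0290, 4.00 ± 0.929, 35.8 ± 32.1 and 159 ± 46.99 FPKM and Xcr1 4.36 ± 0.746, 0.452 ± 0.163, 2.39 ± 1.22 and 8.74 ± 1.56 FPKM, both highest in the day 3 PBS libraries among these 4 groups. These levels are descriptions without a test.

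**Figure D5:**
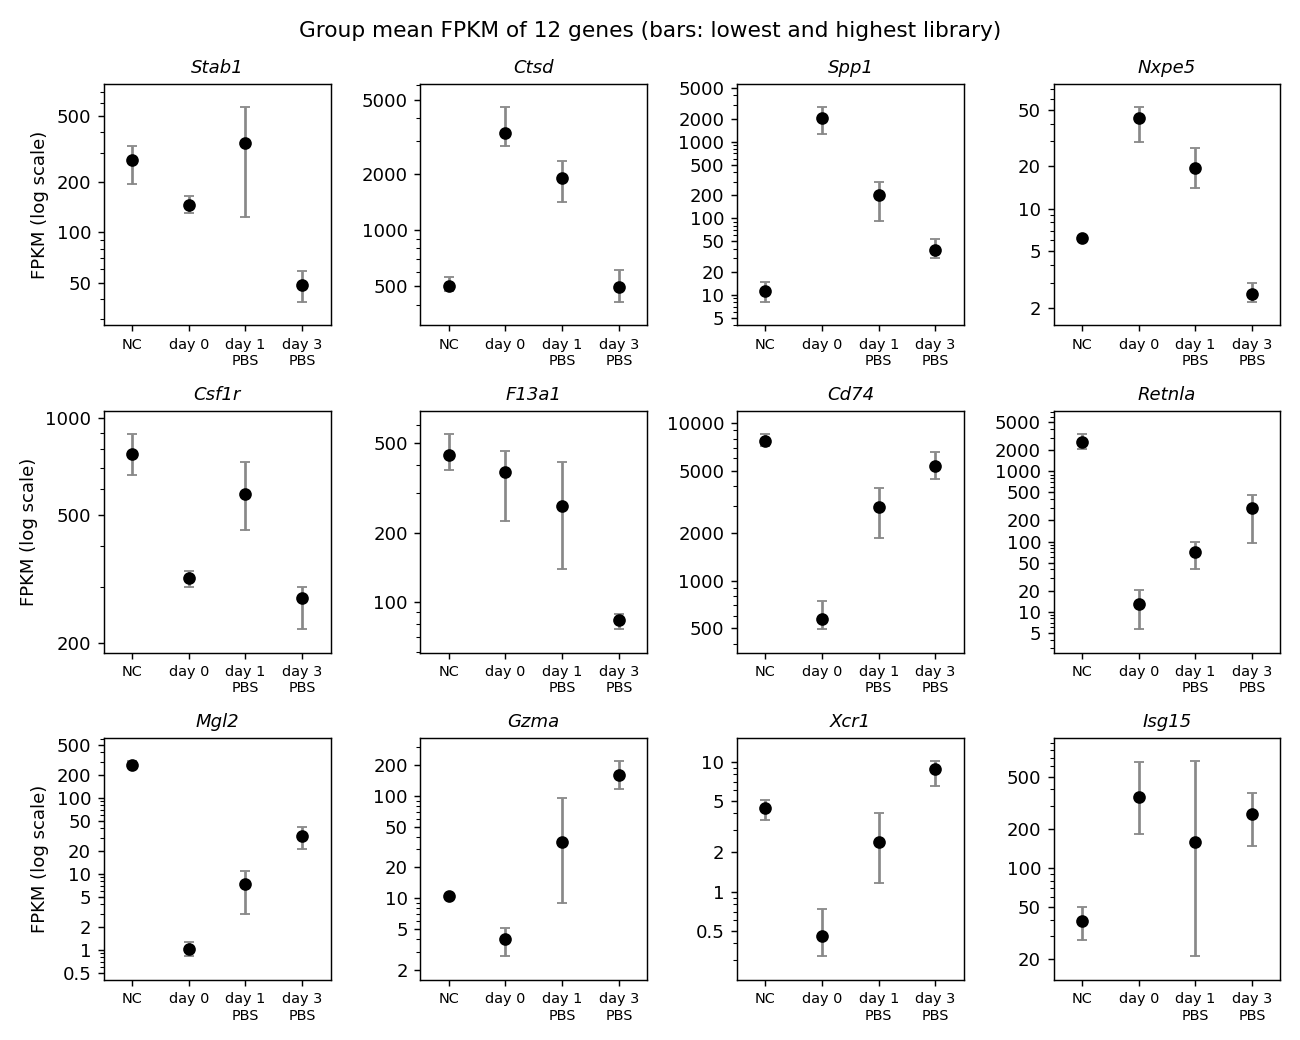
Group mean FPKM on a log axis of 12 genes in NC (3 libraries), day 0 (5), day 1 PBS (6) and day 3 PBS (4) libraries; bars run from the lowest to the highest library. Stab1, Nxpe5 and F13a1 are lowest at day 3 PBS, Gzma and Xcr1 are highest there, and Mgl2, Retnla and Cd74 lie between day 1 PBS and NC.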

How the data were processed

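Macrophages sorted from mouse pancreas were sequenced as 28 RNA-seq libraries. The deposited values are FPKM, which the authors computed; fastp and R 3.2.0 are named in the submitters' processing notes, and the genome build, aligner and counting program were not given in the sources used here. FPKM scales each library to its mapped fragments, so 1 abundant group of transcripts lowers the values of the rest. Whole fragments were recovered from the FPKM steps (99.99% of values within 0.0001 of a whole number) and used for depth and for a duplicate check: in 42 pairs of libraries the chi-square per degree of freedom was at least 22.6, so none was counted as a duplicate.

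Genes with at least 1 FPKM in at least 3 libraries were kept (11960). Differences were tested with limma 3.58.1 in R 4.3.3 on log2(FPKM + 1), with 1 mean per group over all 28 libraries, trend and robust moderation, and Benjamini-Hochberg adjustment over all kept genes at 0.05. Folds are on the log2(FPKM + 1) scale, which understates the change of low genes. A second contrast compared the PBS change with the lactate change. On simulated data, 4.62% of calls were false. That simulation drew independent normal noise for each gene and library, without related genes or libraries that stand apart. Its rate therefore need not hold for the real data. Named genes were the 15 highest and 15 lowest called changes at 10 FPKM or more outside marker lists of other cell types, up to 6 members per list by smallest p, fixed genes, and all copies in families of near copies. A few genes under this rule are not reported here. The members and lists were chosen with earlier results of these data known. Alternatives covered the pseudocount, filter, scaling, samples fitted, marker covariates, weights, the replicate number as a block and single libraries left out. Replicate numbers come from the labels and nothing there says that they pair libraries.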

Additional observations from a re-analysis of the deposited data

Results flagged for a closer look

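Among the 140 genes described, each of the PBS groups was searched for a library whose gap to its nearest neighbour took up an unusually large part of the group's range (Dixon's test at 95%). Of 280 groups of values 10 held such a library, and chance alone flags about 1 in 20. Day 3 PBS replicate 1 was low for Fos (792 FPKM, the others 969 to 1003). Day 3 PBS replicate 2 was low for Csf1r (221 FPKM, the others 285 to 299.9) and low for Npc1 (13.4 FPKM, the others 18.2 to 19.3). Day 3 PBS replicate 3 was low for Selenop (501 FPKM, the others 811 to 855). Day 3 PBS replicate 4 was low for Cd3e (31.3 FPKM, the others 50.4 to 54.3) and low for Pdk1 (9.70 FPKM, the others 13.3 to 13.8). Day 1 PBS replicate 5 was high for Ace (22.8 FPKM, the others 4.87 to 8.45), low for Cd209a (11.7 FPKM, the others 37.1 to 63.4), high for Il12b (3.98 FPKM, the others 0.570 to 1.10) and high for Cd274 (76.6 FPKM, the others 5.85 to 14.8).

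The change from day 1 to day 3 differed between PBS and lactate for 61 of the 140 genes (limma interaction, Benjamini-Hochberg adjusted p under 0.05) and for 10.7% of all genes tested; the 140 were named partly for the size or p of their PBS change, so their share is a description. Each value in brackets is the PBS log2 change minus the lactate log2 change. Among macrophage, resident and scavenger genes the difference was negative for Stab1 (-1.98), Mrc1 (-1.37), F13a1 (-1.59), Gas6 (-1.38), Lrp1 (-1.15), Csf1r (-1.09), Adgre1 (-1.22) and Cd14 (-1.38). Among lysosomal and autophagy genes it was negative for Tpp1 (-0.86), Gusb (-0.64), Npc1 (-0.93), Glb1 (-0.87), Map1lc3b (-0.42), Ulk1 (-0.81), Flcn (-0.80) and Tfe3 (-0.49). Among complement, Fc receptor and other myeloid genes it was negative for C5ar1 (-1.29), Itgam (-0.96), Cfp (-1.01), Fcgr3 (-1.19), Vsir (-0.68), Nxpe5 (-1.97), Abcc3 (-1.51), Nt5dc2 (-1.19), Blvrb (-1.49) and Fos (-0.82). Among interferon-stimulated genes it was positive for Isg15 (4.87), Irf7 (3.96), Ifit2 (4.48), Ifit3 (4.73), Ifit3b (4.84), Ifit1bl1 (4.22), Oas3 (3.68), Xaf1 (2.91), Ifi213 (3.70), Ifi214 (3.52) and Cxcl10 (4.17). Among GTPases, class I and Ly6 genes it was positive for Gbp4 (2.84), Gbp9 (2.64), Gbp10 (4.08), Tgtp1 (3.99), Tap1 (1.07), Nlrc5 (1.56), Ly6a (2.79), Ly6c2 (3.38) and Ly6i (4.93). Among cytotoxic lymphocyte and dendritic cell genes it was positive for Gzma (3.39), Klra7 (1.82), Ncr1 (1.75), Xcl1 (2.08), Ifng (2.64), Clec9a (0.99), Tlr3 (1.12), Ccl22 (3.08), Fscn1 (3.08), Il12b (1.65) and Cd274 (2.43). It was also positive for the monocyte genes Treml4 (1.62) and Ace (1.45) and for Gpr132 (0.81) and Ccnd1 (1.02).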

How the results depend on the processing

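Calls and directions held under another pseudocount (0.1 or 5), no trend, a stricter filter, and with acinar genes removed for at least 128 of the 133 called genes among those described, and none changed direction. With the filter lifted, 14 of the 133 lost their call, with median-ratio scaling 11, and without day 3 replicates 1 and 4, 29, and in a fit of the PBS groups alone 20. Counts of genes higher at day 3 were 1665 with an acinar covariate, 1662 after median-ratio scaling and 1702 in a fit of the PBS groups alone. With a marker level as covariate, the higher and lower counts were 438 and 585 for lymphocytes and 0 and 0 for dendritic cells. For macrophages they were 138 and 206 (added after seeing the data). None of these levels overlaps between the PBS libraries of the 2 days, so the level and the day cannot be told apart. The count of genes whose change differed between PBS and lactate was 3684 with array weights, 2025 with the macrophage and 0 with the dendritic cell covariate, 546 in a fit of the PBS and lactate groups alone, and, both added after seeing the data, 2516 without day 1 PBS replicates 5 and 6 and 356 without day 3 PBS replicates 1 and 4. Leaving out 1 library at a time gave 1784 to 2875 higher genes, 1212 to 1785 lower genes and 622 to 2262 genes that differed between PBS and lactate. Quantile normalization lowered the higher count to 1771 and raised the lower to 2185.

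Estimates that changed sign did so mostly under covariates. With the dendritic cell level they were Lyz2 0.39, C1qa 0.35, Mrc1 0.20, Lamp1 0.065, Apoe 0.49, Cd55 -0.22, Fcgr3 0.000447, Arg1 2.14, Ace -0.16, Itgae -0.17, Flt3 -0.27, Ccl22 -1.22, Fscn1 -1.42, Cd3e -1.65, Cd8a -1.36, Tcf7 -1.42, Cd79a -1.501, Ccl9 0.41, Ldha -0.25, Slc16a1 -0.30, Pdk1 -0.23, Gpr132 -0.30, Hmox1 0.50, Myc -0.57, Fos 0.11, Cpa1 -0.17 and Pecam1 -0.79. With the macrophage level they were C1qa 0.52, Apoe 0.52, Arg1 1.04, Cd3e -0.22, Cd8a -0.010, Tcf7 -0.032, Cd79a -0.76, Ccl9 0.042, Ldha -0.40 and Slc16a1 -0.55. With the lymphocyte level they were Apoe 0.056, Arg1 0.065, Cd3e -0.28, Cd79a -0.71, Ldha -0.30 and Slc16a1 -0.25, and with the acinar level Arg1 0.15 and Cpa1 -0.77. Ldha, which was not called, changed sign with array weights (-0.016), median-ratio scaling (-0.059) and the replicate block (-0.026). Mki67, also not called, ran from -0.41 (without day 1 replicate 5) when 1 library was left out, and was at 0.048 without day 1 replicate 2 and 0.10 without day 3 replicates 1 and 4. The cause of these changes was not tested.

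The replicate block paired libraries that share only a number: same-number correlations of deviations were -0.15, 0.35, 0.29 and -0.02, and no day 3 library correlated best with its own number. These correlations were taken between the PBS groups only. With the block 2053 genes rose, 1405 fell and 1394 differed between PBS and lactate.

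The values hold 4 and 6 libraries, at 33273402 to 41060543 fragments each. In data simulated at this size with known changes, limma recovered 58.2%, 89.6% and 100% of genes changed by 0.5, 1 and 2 on the log2 scale. The changed genes were drawn only from those with a mean log2(FPKM + 1) above 2, so recovery of lower genes was not measured. Noise was independent between genes and libraries, so these shares need not hold for the real data. Low genes have folds that are understated by the pseudocount. The dendritic, lymphocyte and acinar markers that accompany the changes came from the same libraries, and sort purity was not measured independently.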

Other observations

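Further groups of genes gave smaller or less stable counts. Of 12 costimulatory and checkpoint ligands 4 rose (Cd40, Icosl, Cd274 and Pdcd1lg2) and 2 fell (Tnfsf9 and Vsir), and 1 fell without any one of day 1 replicates 1 to 4 or day 3 replicates 1, 3 and 4. Without day 3 replicates 1 and 4, 2 rose, as in a fit of the PBS groups alone. Among 10 markers of plasmacytoid dendritic cells, the main makers of type I interferon, 4 rose (Siglech, Ly6d, Runx2 and Pacsin1), with 2 without day 1 replicate 1 or day 3 replicate 2. Siglech, their defining lectin, had a log2 change of 1.20 (adjusted p = 5.43e-04). Of the 4 erythroid and platelet markers, Pf4 and the globin gene Hbb-bt (-0.64, adjusted p = 0.025) fell, and 1 of them was called without day 1 replicate 2, 3 or 4 or day 3 replicate 1, 3 or 4, and 3 were without day 1 replicates 5 and 6. These genes were singled out after their calls were seen.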
